A study of Mus musculus with 6 samples.

Results

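The transcripts of the surface markers that define the LSK gate and its subsets were examined, chosen by their names as gate and subset antigens, with earlier results of these data known. LSK cells (Lin- Sca-1+ c-Kit+) are the bone marrow fraction that holds the hematopoietic stem cells and their earliest progeny. The 10 marker names stand for 9 genes of the 45706 in the table, since Slamf2 is another name of Cd48. Kit (c-Kit) and Ly6a (Sca-1) are the antigens of the gate itself, and Cd34, Flt3, Cd48, Cd27, Slamf1 (CD150), Procr (EPCR) and Esam are used to divide it. All 9 genes passed the filter on low counts.

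RNA was sequenced from sorted LSK cells of 3 Ctrl and 3 cKO male C57BL/6 mice, 1 library per mouse. Setd1b, the targeted gene, encodes a histone H3K4 methyltransferase. The Ctrl mice carried 1 conditional allele (Setd1b FD/+; RC/+) and the cKO mice only conditional alleles (Setd1b FD/FD; RC/+), and every mouse carried the tamoxifen-inducible Cre-ERT2 recombinase from the Rosa26 locus (RC/+), so that the Ctrl mice were heterozygous after recombination and not wild type. All mice received doses of 4.5 mg tamoxifen by gavage in courses separated by a pause, and were analysed 3 days after the last dose at 16 weeks of age, except for 1 cKO mouse at 17 weeks. The number of doses differs between the labels and the methods. Rosa26 is active in nearly all tissues, so that recombination was not limited to blood cells and could reach the cells that surround the stem cells. Values are given below for Ctrl mice 1, 2 and 3 (AI03, AI54, AI56) and cKO mice 1, 2 and 3 (AI02, AI55, AH74), in this order.

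Between 13003573 and 21277519 reads were counted per library. The library numbers form 2 runs, of which the first holds Ctrl mouse 1 with cKO mice 1 and 2, and the second holds Ctrl mice 2 and 3 with cKO mouse 3, the mouse of 17 weeks. Neither the labels nor the methods state such runs. A pair of genes that overlap ribosomal RNA repeats, Gm42418 and Gm26917, accounted for 4.45% to 5.30% of counts in the first run and for 7.52% to 9.04% in the second. Setd1b itself had 213 ± 16.2 CPM (counts per 1000000 counted reads, SD, n = 3) in the Ctrl libraries and 292 ± 21.1 CPM in those labelled cKO, a log2 fold change of 0.46 (SE 0.073, edgeR, adjusted p = 0.0015). The total is thus higher, not lower, where the gene is labelled as deleted. It does not check the deletion, because the counts cover all exons and recombination removes a single frameshifting exon. The libraries are therefore called by their labels. In mice of this model examined weeks after induction, the paper reports complete recombination by PCR in sorted stem and progenitor cells. It also reports loss of Setd1b mRNA in sorted cKO progenitors.

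Several of these markers order the LSK compartment. Long-term stem cells (LT-HSCs) carry CD150, EPCR and ESAM and lack CD34, FLT3 and CD48, whereas CD34, CD48, CD27 and, in the lymphoid-primed progenitors (LMPPs), FLT3 appear as cells leave the stem cell state. The genes encode receptor tyrosine kinases (Kit, Flt3), members of the SLAM family (Slamf1, Cd48), a GPI-anchored Ly6 protein (Ly6a), a sialomucin (Cd34), a TNF receptor family member (Cd27), the endothelial protein C receptor (Procr) and a junctional adhesion molecule (Esam). RNA was measured here and not the protein on the cell surface.

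Of the 9 genes, Procr and Esam were higher in the libraries labelled cKO, by 2.70-fold and 2.28-fold, and none was lower past the threshold. The antigens of the gate, Kit and Ly6a, and the markers Cd34 and Slamf1 did not pass the threshold, and Flt3, Cd48 and Cd27 had lower means that did not pass it. The count of 2 of 9 higher stands beside 3.88% higher among all 15184 genes tested, and the count of 0 lower beside 3.79% lower (7.67% in either direction, at an adjusted p under 0.05 with edgeR). Without adjustment 5 of the 9 were under 0.05, beside 22.9% of all genes. The median log2 fold change was -0.04 over the 9 genes and 0.00023 over all genes tested. With DESeq2 both rises and no fall were called. In bulk RNA a change in the share of a cell type and a change in the RNA per cell cannot be told apart. For this time point the paper describes a make-up of the LSK compartment largely like that of controls, without showing the data. It also found Klf1, Mpo and Ighm each lower by quantitative PCR in a sorted LSK subset of cKO mice. It gives no such PCR measurement for the 9 genes.

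**Figure D1:**
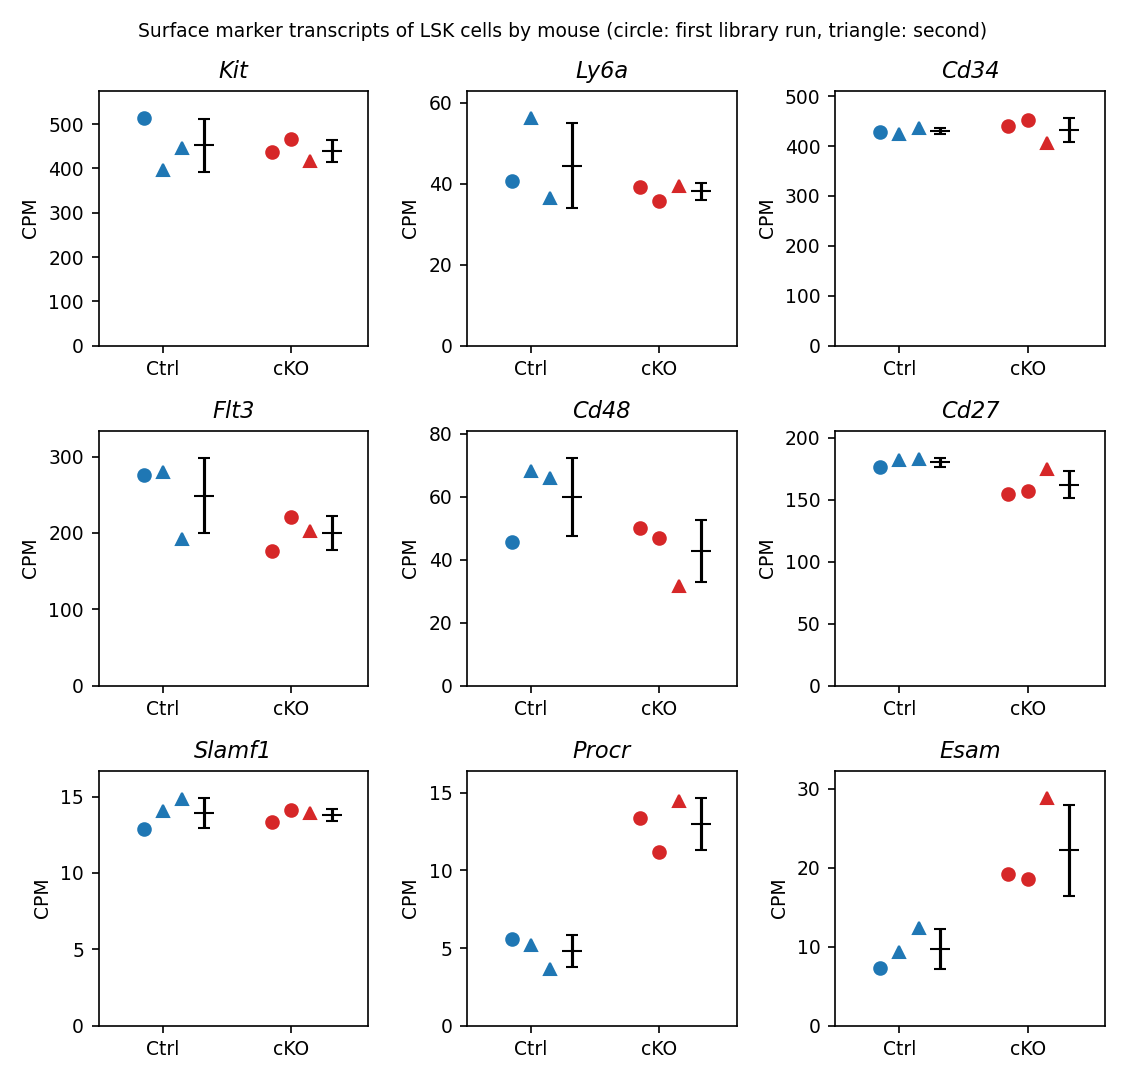
Level (CPM, linear axes from 0) of the 9 surface marker genes in each mouse, Ctrl in blue and labelled cKO in red, with circles for the first and triangles for the second library run, and with the mean and SD of each group (n = 3) in black. The groups do not overlap for Procr, Esam (both higher in cKO) and Cd27 (lower in cKO).

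Procr lies at chr2:155751117-155755471 on the plus strand (GRCm38, as deposited). EPCR binds protein C, and among blood cells it marks stem cells. It had 5.59, 5.20 and 3.65 CPM in the Ctrl libraries and 13.4, 11.2 and 14.4 CPM in those labelled cKO, from 57 to 109 and from 176 to 206 counts. Every library labelled cKO was thus above every Ctrl library, with a gap between them wider than the range of either group. The log2 fold change was 1.43 (SE 0.19, 95% interval 1.02 to 1.85, edgeR, adjusted p = 0.00036), and 0.527% of all genes tested had a rise of this size or more. The difference was 1.11 within the first library run and 1.70 within the second, on the log2 scale. An exact permutation test of the 3 against 3 values gave p = 0.1, which is the smallest the design allows.

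Esam lies at chr9:37528078-37538319 on the plus strand. ESAM is a junction protein of endothelial cells and platelets that LT-HSCs also carry. It had 7.35, 9.30 and 12.3 CPM in the Ctrl libraries and 19.2, 18.6 and 28.8 CPM in those labelled cKO. The groups did not overlap, and the highest value was that of cKO mouse 3. Its log2 fold change was 1.19 (SE 0.20, 95% interval 0.77 to 1.61, edgeR, adjusted p = 0.0017), with differences of 1.34 and 1.42 in the first and second run. Without cKO mouse 3 it was 0.96 (edgeR, adjusted p = 0.011).

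Procr and Esam are also genes of endothelial cells, and the list of 6 endothelial and stromal markers was therefore read beside them. Of the 3 tested, Kdr (VEGF receptor) was higher by a log2 fold change of 1.90, while Pecam1 (-0.33) and Cxcl12 (-2.08) were lower. Cdh5, which defines endothelium, had 0, 2 and 5 counts in the Ctrl libraries and 11, 4 and 8 counts in those labelled cKO, and was too low to test. Col1a1 and Lepr, stromal markers, had at most 14 and 2 counts in any library. The summed level of the list was 116 to 128 CPM in the Ctrl libraries and 96.8 to 98.7 CPM in those labelled cKO, of which Pecam1 held most (112 to 119 and 90.3 to 93.6 CPM). The part of these genes in the rise of Procr and Esam was not tested.

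Slamf1, the third marker of LT-HSCs within the gate, did not pass the threshold. It lies at chr1:171767127-171801184 on the plus strand, with 12.9, 14.1 and 14.8 CPM in the Ctrl libraries and 13.3, 14.1 and 14.0 CPM in those labelled cKO. The groups overlapped entirely, the values of the libraries labelled cKO lying within the range of Ctrl. This gave a log2 fold change of -0.01 (95% interval -0.29 to 0.26, edgeR, adjusted p = 0.96), on 168 to 295 counts per library. The interval does not reach the lower bounds for Procr (1.02) and Esam (0.77). Within each library the log2 ratio of Procr to Slamf1 counts was -1.20, -1.44 and -2.03 in Ctrl and 0.01, -0.33 and 0.05 in the libraries labelled cKO. That of Esam to Slamf1 was -0.81, -0.60 and -0.27 against 0.52, 0.40 and 1.05. Neither ratio overlapped between the groups. These ratios, which do not depend on the scaling between libraries, were added after the values had been seen and were not tested.

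The promoters of the genes are shown because SETD1B acts on chromatin at gene starts and its complex holds CXXC1, a protein that binds unmethylated CG dinucleotides. Sequences were available from RefSeq (GRCm38.p6) for 7 of the 9 genes, and Procr, Slamf1 and Flt3 are printed from 250 bases before to 50 bases after the start, on the strand of the gene, with every CG in capitals. They stand for a marker that rose, a stem cell marker that did not pass the threshold and a progenitor marker with a lower mean.
Procr (chr2:155750967-155751266, plus strand): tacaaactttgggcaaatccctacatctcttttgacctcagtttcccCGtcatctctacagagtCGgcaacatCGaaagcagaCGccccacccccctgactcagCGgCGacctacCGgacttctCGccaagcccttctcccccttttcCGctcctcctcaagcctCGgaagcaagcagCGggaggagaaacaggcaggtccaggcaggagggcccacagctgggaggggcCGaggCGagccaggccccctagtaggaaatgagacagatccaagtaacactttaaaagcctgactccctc
Slamf1 (chr1:171766882-171767181, plus strand): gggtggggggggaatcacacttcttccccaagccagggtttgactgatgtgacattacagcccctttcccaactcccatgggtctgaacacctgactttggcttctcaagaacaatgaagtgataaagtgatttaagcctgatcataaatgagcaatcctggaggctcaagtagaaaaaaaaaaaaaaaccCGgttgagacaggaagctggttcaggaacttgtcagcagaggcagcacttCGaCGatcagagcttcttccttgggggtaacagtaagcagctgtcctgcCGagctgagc
Flt3 (chr5:147400440-147400739, minus strand): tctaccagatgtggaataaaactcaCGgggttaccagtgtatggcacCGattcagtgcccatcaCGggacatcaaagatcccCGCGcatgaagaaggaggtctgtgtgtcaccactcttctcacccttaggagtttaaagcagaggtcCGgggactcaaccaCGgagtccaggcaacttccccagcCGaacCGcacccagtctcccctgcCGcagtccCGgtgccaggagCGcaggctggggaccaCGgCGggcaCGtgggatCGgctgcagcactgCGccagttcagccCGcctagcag
Procr holds 13 CG, Slamf1 4 and Flt3 18, beside a median of 7 over 32544 distinct promoters of this length. At least as many CG as Procr were found in 38.2% of these promoters, as many as Slamf1 in 69.0% and as many as Flt3 in 29.9%. The other 4 genes held 7 (Cd34, Cd48 and Cd27) or 20 and 21 (Kit, for a pair of starts that overlap). Of 4 short motifs searched on both strands, the ETS motif CCGGAA (in 14.98% of all promoters) and the RUNX motif TGTGGT (16.7%) were found in Cd48 and the GC box GGGCGG (35.9%) in Kit, and the GATA motif AGATAA (11.2%) in none of the 7 genes. The motifs do not overlap one another in these promoters.

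Kit, the receptor of stem cell factor, lies at chr5:75574916-75656722 on the plus strand and had 514, 395 and 446 CPM in the Ctrl libraries against 438, 466 and 416 CPM in those labelled cKO. Its log2 fold change was -0.04 (95% interval -0.22 to 0.14, edgeR, adjusted p = 0.84). Ly6a, a Ly6 protein that stem and progenitor cells carry in this strain, lies at chr15:74994877-74998031 on the minus strand. It had 40.6, 56.3 and 36.5 CPM against 39.3, 35.8 and 39.3 CPM, a log2 fold change of -0.23 (95% interval -0.51 to 0.05, edgeR, adjusted p = 0.33). Both groups overlapped for both genes, and the highest Ly6a value, in Ctrl mouse 2, set most of the lower mean: without that mouse the log2 fold change was -0.02. Both antigens were used to sort the cells, so that their surface levels were bounded by the gate in both groups. Ly6a belongs to a family of similar genes, and reads shared with its neighbours would not have been counted as unique.

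Cd34, at chr1:194938819-194961279 on the plus strand, is the sialomucin that separates LT-HSCs from the rest of the LSK cells. It had 428, 425 and 436 CPM in the Ctrl libraries and 440, 451 and 405 CPM in those labelled cKO. The log2 fold change of 0.01 had a 95% interval of -0.12 to 0.14 (edgeR, adjusted p = 0.95), the narrowest of the 9 genes. The log2 ratio of Cd34 to Procr was 6.26, 6.35 and 6.90 in Ctrl and 5.04, 5.34 and 4.81 in the libraries labelled cKO, without overlap.

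Flt3, the receptor of FLT3 ligand and the marker of LMPPs, lies at chr5:147330741-147400489 on the minus strand. It had 275, 280 and 192 CPM in the Ctrl libraries and 177, 221 and 203 CPM in those labelled cKO. Ctrl mouse 3 lay among the libraries labelled cKO, and the other 2 Ctrl mice lay above all of them. The log2 fold change was -0.31 (SE 0.12, 95% interval -0.56 to -0.07), with an unadjusted p of 0.017 and an adjusted p of 0.12 (edgeR). Without Ctrl mouse 3 it was -0.47 and passed the threshold (edgeR, adjusted p = 0.0078), and without any other mouse it did not. The log2 ratio of Flt3 to Kit was -0.90, -0.50 and -1.22 in Ctrl and -1.31, -1.08 and -1.04 in the libraries labelled cKO, which overlapped.

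Cd48, at chr1:171682009-171705258 on the plus strand, ends 61868 bases before Slamf1 on the same chromosome, in the SLAM gene cluster. Its protein is the ligand of CD244 and appears on progenitors. It had 45.8, 68.3 and 66.0 CPM in the Ctrl libraries and 49.99, 47.1 and 31.7 CPM in those labelled cKO. The log2 fold change was -0.49 (SE 0.16, 95% interval -0.82 to -0.15), with an unadjusted p of 0.0072 and an adjusted p of 0.074 (edgeR). Within the first library run the difference was 0.08 and within the second -1.08. The first run held a single Ctrl mouse and the second a single cKO mouse, so that these differences are imprecise. With the library run as a covariate the log2 fold change was -0.49 (edgeR, adjusted p = 0.11). Ctrl mouse 1, in the first run, had the lowest Ctrl value, and without it the log2 fold change was -0.64 (edgeR, adjusted p = 0.014). Without any other single mouse Cd48 did not pass the threshold. Without cKO mouse 3, the only cKO mouse of the second run, its log2 fold change was -0.32 (edgeR, adjusted p = 0.23). The log2 ratio of Cd48 to Slamf1 likewise differed by -0.01 in the first run and by -1.03 in the second.

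Cd27, at chr6:125232622-125237010 on the minus strand, encodes a receptor of the TNF family that shorter-lived LSK cells carry. It had 176, 182 and 183 CPM in the Ctrl libraries and 155, 157 and 175 CPM in those labelled cKO. Every library labelled cKO was below every Ctrl library, by a small margin. A log2 fold change of -0.15 was obtained (95% interval -0.29 to -0.01, edgeR, adjusted p = 0.18), and the exact permutation test gave p = 0.1. In all, 3 of the 9 genes did not overlap between the groups, beside 27.3% of all genes tested (14.0% with cKO above and 13.4% with cKO below). The microRNA gene Mir8113 shares 5.54% of the exon bases of Cd27.

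**Figure D2:**
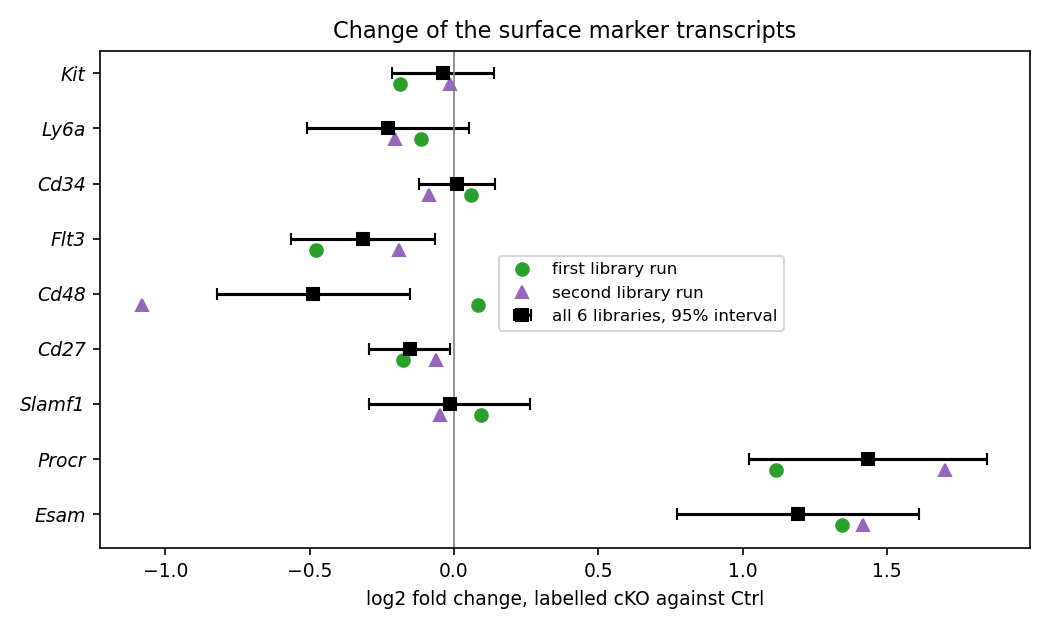
Log2 fold change of each surface marker gene, libraries labelled cKO against Ctrl, with its 95% interval from edgeR over 6 libraries (black squares) and the difference of mean log2 CPM within the first (green circles) and second (purple triangles) library run. Procr and Esam lie to the right in both runs, and the runs differ most for Cd48 (0.08 and -1.08).

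Levels can be compared between genes per length, as CPM per kilobase of exon (RPKM). In the Ctrl libraries Cd27 was highest at 77.4 ± 1.52 (SD, n = 3), followed by Cd34 at 58.9 ± 0.79, Kit at 50.7 ± 6.68 and Cd48 at 50.5 ± 10.4. Flt3 had 40.3 ± 7.99 and Ly6a 36.9 ± 8.65. Esam at 3.37 ± 0.88, Procr at 2.37 ± 0.50 and Slamf1 at 2.26 ± 0.16 formed a low group. In Ctrl the ranges of neighbours in this order overlapped for Kit and Cd48, Cd48 and Flt3, Flt3 and Ly6a, Esam and Procr, and Procr and Slamf1, and the other neighbours were apart. The order was the same in the libraries labelled cKO, where Esam had 7.74 ± 2.01, Procr 6.41 ± 0.82 and Slamf1 2.24 ± 0.07, and where Procr no longer overlapped with Slamf1. The 3 markers of LT-HSCs within the gate were thus the lowest of the 9 per length in both groups.

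**Figure D3:**
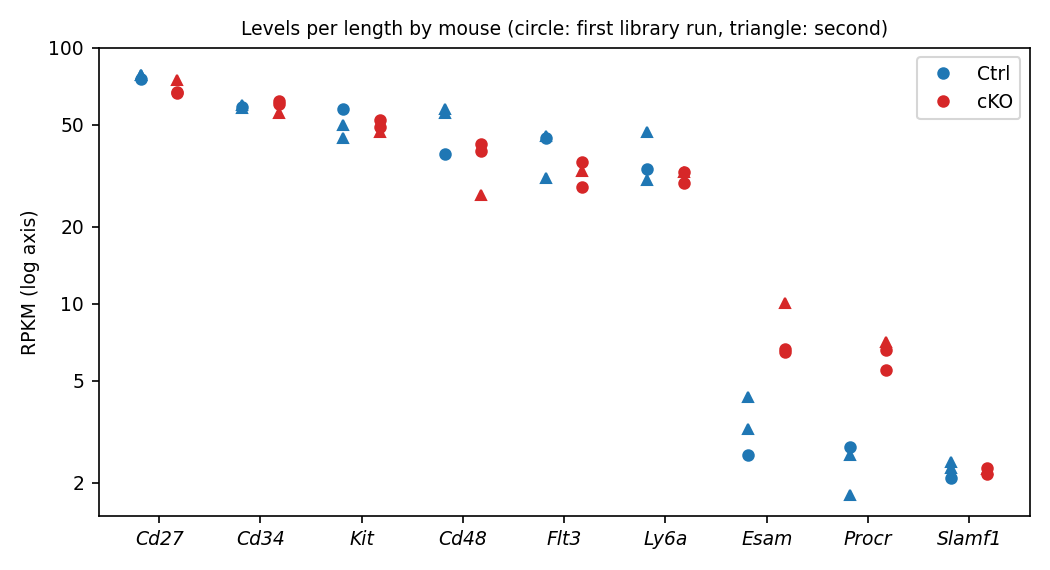
Level per length (RPKM, log axis) of each surface marker gene in each mouse, ordered by the Ctrl mean, Ctrl in blue and labelled cKO in red, circles for the first and triangles for the second library run. Esam, Procr and Slamf1 lie far below the other 6 genes, and Esam and Procr move up in cKO while Slamf1 stays between 2.09 and 2.41.

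**Figure D4:**
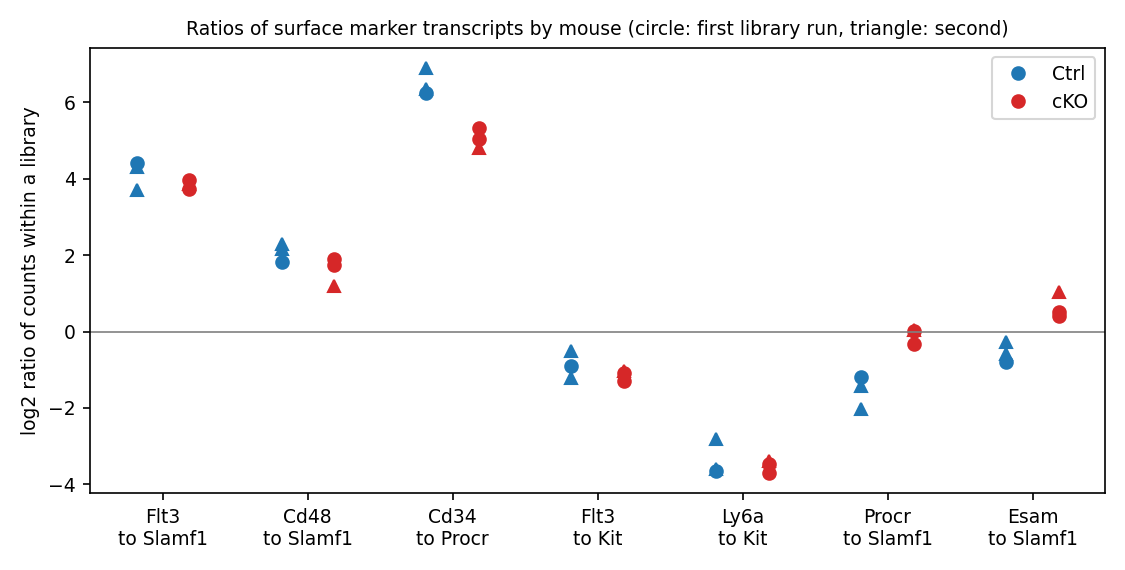
Log2 ratio of the counts of 2 surface marker genes within each library, Ctrl in blue and labelled cKO in red, circles for the first and triangles for the second library run. The groups are apart for Cd34 to Procr, Procr to Slamf1 and Esam to Slamf1 and overlap for the other 4 ratios.

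Other surface markers were taken from lists that hold none of the 9 genes, and the counts of these and the following lists stand beside 3.88% higher and 3.79% lower among all genes tested. Of 18 genes described as higher on LT-HSCs, all tested, 5 were higher and 1 was lower in the libraries labelled cKO (edgeR), with a median log2 fold change of 0.35. The other 12 were not called. The list summed to 1839 to 1941 CPM in Ctrl and to 1719 to 1946 CPM in the libraries labelled cKO. Among the higher genes were Itgb3 (1.07) and Itga6 (0.36), which encode integrin chains, Tek (0.82), the receptor TIE2, and Alcam (0.55), an adhesion molecule. Itgb3 had 25.8, 32.3 and 29.3 CPM in Ctrl and 45.9, 51.5 and 87.0 CPM in the libraries labelled cKO, the highest again in cKO mouse 3. The lower gene, Cd93, encodes a lectin-like receptor and had 395, 377 and 349 CPM against 209, 202 and 211 CPM, a log2 fold change of -0.85 (edgeR, adjusted p = 9.5e-07). Without Ctrl mouse 3, 2 genes of this list were lower.

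Of 16 surface genes described as higher on LMPPs and committed progenitors, all tested, none was higher and 7 were lower, with a median log2 fold change of -0.49. Il7r, the receptor of interleukin-7, had 9.03, 9.72 and 3.46 CPM in Ctrl and 2.68, 2.73 and 2.88 CPM in the libraries labelled cKO (log2 difference -1.42). Fcgr3 (-1.34), an Fc receptor, and Csf1r (-0.70) and Csf3r (-0.33), the receptors of M-CSF and G-CSF, were also lower. The count of lower genes was 4 without Ctrl mouse 2, cKO mouse 2 or cKO mouse 3.

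**Figure D5:**
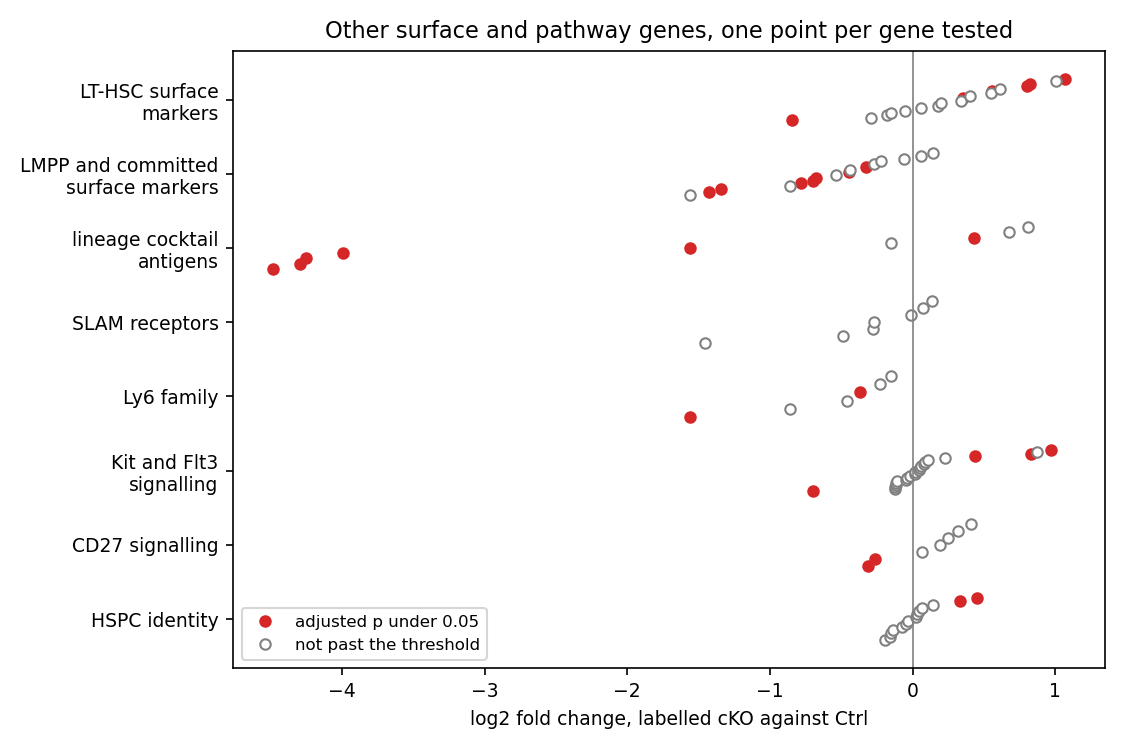
Log2 fold change, libraries labelled cKO against Ctrl, of the tested genes of 8 lists (1 point per gene), with red points for genes at an adjusted p under 0.05 with edgeR and open points for the others. Calls lie mostly to the right of 0 in the LT-HSC surface list (5 of 6, with 12 of 18 genes not called). They all lie to the left in the list of LMPP and committed surface markers (7 of 7, with 9 of 16 genes not called).

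Of 15 genes for antigens of the lineage cocktail, against which the gate selects, 9 passed the filter on low counts. The 15 summed to 81.9 to 116 CPM in Ctrl and to 60.4 to 80.0 CPM in the libraries labelled cKO. Cd3e, Cd8a, Ly6g and Trbc2 were under the filter, with at most 5 counts in any library. Of the 9 antigen genes tested, 5 were lower and 1 was higher in the libraries labelled cKO, but only 2 were lower when at least 10 counts in every library were required and 0 were higher at a threshold of 0.01. Tcrg-C1, a T-cell receptor gamma constant gene, had 276, 310 and 230 counts in Ctrl and 13, 15 and 19 counts in the libraries labelled cKO. Trbc1 had 87, 77 and 34 counts against 1, 7 and 0, Tcrg-C2 32, 21 and 16 against 2, 1 and 0, and Trdc 15, 22 and 12 against 0, 2 and 0, which is too few for a fold change. Ly6c2, which encodes the monocyte antigen Ly6C, fell by 1.56 on the log2 scale, and this was the median of the list. Itgam (CD11b) was higher by 0.43. Cd4 (0.81), Klrb1c (0.68) and Ly6c1 (-0.15) did not pass the threshold. The T-cell receptor constant genes were thus counted in Ctrl libraries in which Cd3e had 0 counts. The call of Itgam was lost without Ctrl mouse 1, Ctrl mouse 2, cKO mouse 1 or cKO mouse 2, each of which left 0 antigen genes higher.

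In the SLAM receptor family, including Slamf1 and Cd48, none of 7 genes tested passed the threshold, with 3 at an unadjusted p under 0.05 and a median log2 fold change of -0.27. Cd84 (0.08) and Ly9 (0.13) had means close to those in Ctrl, and Cd244a, the receptor of CD48, had -0.27. Slamf6 (-0.28) and Slamf7 (-1.45) were expressed at a low level, and Slamf8 and Slamf9 were under the filter. Of the SLAM adaptors Fyn, a Src family kinase, was higher (0.48), Sh2d1b1 (0.51) was not called, and Sh2d1a and Sh2d1b2 were under the filter. In the Ly6 family, including Ly6a, 2 of 6 genes tested were lower and none was higher. These were Ly6c2 and Ly6e (-0.37), a widely expressed member with 614 to 704 CPM in Ctrl and 477 to 519 CPM in the libraries labelled cKO. Ly6c1, Ly6d (-0.86) and Lynx1 (-0.46) did not pass the threshold, and Ly6f, Ly6g, Ly6h, Ly6i, Ly6k and Lypd2 were under the filter.

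The ligands of the receptors were largely absent. Cd70 (the ligand of CD27) and Proc (protein C) had 0 counts in every library, and Kitl, which encodes stem cell factor, was under the filter with at most 0.57 CPM. Flt3l was not analysed here. F2r, the thrombin receptor PAR1 through which EPCR-bound activated protein C signals, was higher, with 100.2, 80.6 and 94.5 CPM in Ctrl and 126, 132 and 132 CPM in the libraries labelled cKO (log2 fold change 0.51, edgeR, adjusted p = 0.0011). Selp (P-selectin) had 0.73 and did not pass the threshold (edgeR, adjusted p = 0.094), and neither did Jam3 (0.82), another junction molecule. Of 4 genes tested in the list of ligands and partners, 1 was higher and 1, not reported here, was lower (edgeR). Without Ctrl mouse 2, 2 genes of this list were higher.

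In the list of Kit and Flt3 signalling, which also holds related receptor kinases, 3 of 22 tested genes were higher and 1 was lower, with a median log2 fold change of 0.03. Pdgfrb (0.83), a related receptor kinase, Stat3 (0.44) and Socs3 (0.97), a feedback inhibitor, were higher, and Csf1r, another related receptor, was lower. Socs3 had 4.06 CPM in Ctrl mouse 1, and its adjusted p was 0.0497 (edgeR). Downstream of CD27, 2 of 7 genes were lower, the adaptor Traf3 (-0.27) and Siva1 (-0.32), which encodes a protein that binds the CD27 tail, and none was higher. Fewer were called without single mice, with 1 gene lower without Ctrl mouse 1 or 2 and 0 without Ctrl mouse 3 or any single cKO mouse. Among 14 identity genes of stem and progenitor cells, all were expressed in every library, Mecom (0.45) and Fli1 (0.33) were higher and none was lower, with a median of -0.0040. Mecom, a stem cell transcription factor, had 66.3, 66.1 and 60.3 CPM in Ctrl and 79.3, 88.6 and 95.3 CPM in the libraries labelled cKO.

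The genes whose levels followed those of Flt3 most closely over the 6 libraries, among 9522 genes with at least 10 CPM on average, were Tubgcp5 (Pearson r = 0.991 on log2 CPM), Bcl11a (0.981) and Ubap2l (0.975), none of which passed the threshold. For Procr they were Gdap2 (0.996), Trove2 (0.994) and Trim21 (0.991), of which Trove2 (log2 fold change 0.44) and Trim21 (0.42) were higher. With 6 libraries that share the group difference, such values describe these libraries only.

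Markers of lineages that share surface antigens with LSK cells moved in the same libraries. The summed level of 8 erythroid markers was 81.1 to 117 CPM in the Ctrl libraries and 14.2 to 19.6 CPM in those labelled cKO, with 2 of 4 tested lower (Car1 and Klf1) and Slc4a1 at 0 counts in all but 1 library. For 6 markers of mast cells and basophils, cells that carry c-Kit, it was 54.5 to 63.8 against 18.4 to 26.1 CPM, with 3 of 5 tested lower (Ms4a2, Cpa3 and Cma1). For 7 markers of monocytes it was 141 to 179 against 87.9 to 119 CPM, with 4 lower (Ccr2, Ly6c2, Csf1r and Cd68) and Itgam higher. The part of these shifts in the values of the surface markers was not tested. The trend of counts against gene length also differed between libraries: with it removed, 531 genes were higher and 846 lower, beside 589 and 575, and Flt3 then passed the threshold (log2 fold change -0.38, edgeR, adjusted p = 0.039).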

How the data were processed

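RNA of sorted LSK cells of 3 Ctrl and 3 cKO mice was prepared with a stranded total RNA kit and sequenced, 1 library per mouse. The authors used GSNAP for alignment to GRCm38 (mm10) and featureCounts 1.5.0 with Ensembl release 81 for counting, taking unique alignments in the sense orientation at a mapping quality of at least 1. Raw counts were deposited, with gene positions and summed exon lengths. Columns were matched to mice by name.

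From the counts, all genes were fitted with edgeR 4.0.16 (TMM, filterByExpr, quasi-likelihood test, genotype as only term), with Benjamini-Hochberg adjustment over 15184 genes and a threshold of 0.05. Standard errors were derived from the fold change and the F statistic. CPM and RPKM used TMM library sizes, and log2 CPM a prior count of 2. The count model was tested on simulated data. Alternatives, with DESeq2 1.42.0 among them, are given in the closing section. Intervals cover the spread between these mice, and 3 per group limit their precision.

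The surface marker genes and the lists were chosen with earlier results of these data known. All surface marker genes, lineage antigens, SLAM receptors and Ly6 genes are named, up to 5 genes with the smallest p of any other list, and for Flt3 and Procr the 3 most correlated genes. Some items that this rule selects are not reported here. Other genes were named after their values had been seen. Symbols came from GENCODE M21, which named 98.8% of the genes. Promoters came from RefSeq.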

Additional observations from a re-analysis of the deposited data

How the results depend on the processing

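The rises of Procr (log2 fold change 1.27 to 1.54) and Esam (0.96 to 1.39) and the value of Setd1b (0.37 to 0.50) passed the threshold in each of the 15 alternatives, as did the count of 2 surface marker genes higher. No alternative gave a call for Kit, Ly6a, Cd34, Slamf1 or Cd27. Flt3 was called lower with the length trend removed (-0.38) and with no filter on low counts (-0.32, edgeR, adjusted p = 0.00036), and Cd48 with no filter (-0.49, edgeR, adjusted p = 1.2e-05), so that the count of lower genes was 1 and 2 in these settings, and it lay between 0 and 1 when single mice were left out. The cause was not tested. Leaving out single mice moved Flt3 between -0.47 and -0.22, Cd48 between -0.64 and -0.32, Kit between -0.13 and 0.065, Cd34 between -0.023 and 0.051, and Slamf1 between -0.066 and 0.029, the last 3 around 0. Cd34 was also below 0 with the length trend removed (-0.060) or the library run as a covariate (-0.014), and Slamf1 above 0 with the run as a covariate (0.021) or upper-quartile factors (0.00072). At a threshold of 0.01, 10 genes of the surface and pathway lists were lower, against 16 of 83 tested. By list, 29 of 270 counts moved by more than 1.5 times or between 0 and another count. Without length scaling Kit ranked 1, Flt3 3, Cd27 4, Cd48 5, Slamf1 7, Esam 8 and Procr 9. Over all genes 1164 calls were made, against 604 to 1125 without single mice. With no filter 809 were higher and 873 lower. The paper describes the Ctrl and cKO mice as littermates but does not say which of them shared a litter. No paired analysis was possible because the labels give no replicate numbers that the groups share. Slamf1 rested on 168 to 295 and Procr on 57 to 206 counts per library, which limits how small a change could be seen.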

Other observations

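Among further lists of mature cells, those of B and T cells were low in both groups. Their summed levels were 17.6 to 21.6 CPM in the Ctrl libraries and 17.5 to 21.7 CPM in those labelled cKO for 8 B-cell genes, of which Cd79b (15.5 and 17.4 CPM on average) held most, and 18.7 to 24.8 against 22.3 to 26.7 CPM for 8 T-cell genes, mostly Lck. Of 3 genes tested in each list, Vpreb1 was lower (log2 fold change -1.99, edgeR, adjusted p = 0.028) and no gene of the T-cell list passed the threshold, with 1 at an unadjusted p under 0.05. The T-cell list does not hold Tcrg-C1, Trbc1, Tcrg-C2 and Trdc, which are given above with the lineage antigens. Markers of NK cells were summed to 48.5 to 62.6 against 25.8 to 35.2 CPM, of which Nkg7 held most and was lower (-0.85). Of the other lists, Il1rl1 (-1.73) was lower among 4 tested genes of innate lymphoid cells 2 together with Il7r, and Irf8 (-0.78) among 4 of plasmacytoid dendritic cells. Pf4 (-1.27) was lower among 6 of megakaryocytes, and Jchain (-2.80) among 3 of antibody-secreting cells. S100a8 (-1.96) and S100a9 (-2.16) were lower among 3 of mature neutrophils. In the same libraries Itga2b and Vwf of the megakaryocyte list did not pass the threshold (-0.15 and 0.12).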
